A study of Bos taurus with 15 samples.

Results

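The respiratory chain genes are the genes that encode subunits of the 4 electron transfer complexes of the mitochondrial inner membrane and of ATP synthase, which is counted as complex V. They were chosen by symbol: the 13 protein-coding genes of mitochondrial DNA, and every gene row whose symbol begins with the subunit stems NDUFA, NDUFB, NDUFC, NDUFS or NDUFV and a digit, UQCR, COX4 to COX8 or ATP5, or is SDHA, SDHB, SDHC or SDHD. The rule found 97 of the 38001 gene rows of the table, 13 mitochondrially encoded and 84 nuclear, and no measured value entered it. Of these, 93 had enough counts to be tested, all 13 mitochondrial rows and 80 nuclear ones, among 11834 tested genes in all. COX7B and ATP5F1E each have 2 nuclear rows under different identifiers.

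The study cast bovine meniscal fibrochondrocytes, the matrix-forming cells of the knee meniscus, in collagen and sampled every tissue at day 28. All tissues had 3 days of growth medium with 10% fetal bovine serum, then 25 days of chondrogenic medium with ascorbic acid at 50 µg/ml, dexamethasone and the growth factor TGF-β3 at 10 ng/ml. Of the 5 groups of 3 libraries, 4 came from 3D-printed molds, with or without post anchors and from the middle or the post region: the middles and the posts, each unanchored or anchored. The other group, no mold, was cells in collagen that had not been molded. Each region was cut into smaller pieces before RNA was extracted. The labels name no strain, age or sex of the source animals and do not say whether the replicates came from separate tissues or animals, so the p-values measure how far these libraries spread, which can be technical alone.

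Electrons from NADH enter the chain at complex I, those from succinate enter at complex II, and both pass through complexes III and IV to oxygen, while complexes I, III and IV pump the protons that drive ATP synthase. Complexes I, III, IV and V are built from subunits of both genomes, and complex II from nuclear subunits alone. The mitochondrial genes are transcribed together as long precursors from each strand of mitochondrial DNA, whereas each nuclear gene has its own promoter. Meniscal and cartilage cells live in tissue with little blood supply and draw much of their ATP from glycolysis.

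Library totals ran from 2060781 to 7415701 counts. The 3 lowest totals were those of no-mold libraries 1 and 3 and anchored middle library 2, with 2060781, 2128257 and 2986944 counts, so depth moved with the no-mold group, and its part in each comparison with that group was not tested. All 11 fibrochondrocyte markers were tested, with a summed level of 30900 to 48900 counts per 1000000 (CPM) over the libraries. The sum hides wider ranges of single markers, such as COL2A1 (19.7 to 828 CPM), COMP (371 to 3000) and ACAN (47.2 to 258), beside narrower ones such as LUM (5680 to 10200). The endothelial markers summed to at most 1 CPM with 0 of 4 tested, the skeletal and heart muscle markers to 1.1 to 5.4 CPM with 0 of 7 tested and MYOG at 0, and the leukocyte and macrophage markers to 4.25 to 8.29 CPM with 1 of 4 tested. Schwann and neural markers summed to at most 0.485 CPM and adipocyte markers to 1.74 to 4.32. Red blood cell markers summed to 2.82 to 7.52 CPM without a mold and 0.149 to 6.08 in the molded libraries. The deposited counts are estimates, and part of them sits in values that are not whole, as when a read is divided between similar genes. That part was 25.24% to 71.29% of the counts of a mitochondrial gene, with a median of 47.75%, and a median of 35.8% for the tested nuclear members against 0% for all tested genes. Values that are not whole are called divided below. Such a value enters this part in full even if a fraction of 1 read made it so, which is likelier for genes with many counts. The part is therefore not the share of reads that were divided. Nuclear copies of mitochondrial genes and processed pseudogenes of the nuclear ones are common in mammals. The level of a gene with a large divided part can thus be uncertain, by an amount that was not measured. In RNA from whole tissue, fewer cells of a type and less RNA per cell cannot be told apart.

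In sum, mitochondrially encoded messenger RNA stood higher in the middle region of the molded tissue than without a mold, and the nuclear messenger RNA of the same complexes did not. The sums and ratios are descriptions and were not tested. The 13 mitochondrial genes summed to 14024, 17376 and 14321 CPM in no-mold libraries 1, 2 and 3, and to 22191, 20624 and 23494 CPM for unanchored middle. Anchored middle had 23573, 17699 and 20531 CPM. The middle libraries all lay above the no-mold libraries, the nearest pair being anchored middle library 2 and no-mold library 2. Unanchored post had 19313, 15183 and 19726 CPM, and anchored post had 18350, 18376 and 16195 CPM, so both post groups overlapped the no-mold group. As a share of all counts these genes made up 1.52% ± 0.188 without a mold (SD, n = 3 here and for every group), 2.21% ± 0.145 for unanchored middle, 1.81% ± 0.249 for unanchored post, 2.06% ± 0.295 for anchored middle and 1.77% ± 0.127 for anchored post.

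The nuclear sum had its lowest means in the middle groups. The nuclear members summed to 15579, 16136 and 17211 CPM without a mold, 14285, 14985 and 16114 for unanchored middle and 15864, 16308 and 16925 for unanchored post. Anchored middle had 15389, 16502 and 14695 CPM and anchored post 16096, 18196 and 15626. All 5 groups overlapped in this sum, and their shares of all counts ran from 1.51% ± 0.0907 for unanchored middle to 1.66% ± 0.138 for anchored post.

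The ratio of the mitochondrial to the nuclear sum puts both in 1 number for each library. Because transcripts differ in poly(A) tail and in divided reads, it compares groups and does not say which genome gives more RNA. It was 0.9, 1.08 and 0.832 without a mold, 1.55, 1.38 and 1.46 for unanchored middle and 1.22, 0.931 and 1.17 for unanchored post. In anchored middle it was 1.53, 1.07 and 1.4, and for anchored post 1.14, 1.01 and 1.04. The group means were 0.937 ± 0.128, 1.46 ± 0.085, 1.11 ± 0.154, 1.33 ± 0.237 and 1.06 ± 0.0681 in the same order. Only the unanchored middle libraries stood wholly above the no-mold and both post groups, since anchored middle library 2, at 1.07, fell among them.

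Each complex built from both genomes had its higher ratios in the middle groups. For complex I the ratio averaged 1.14 ± 0.167 without a mold, 1.64 ± 0.0808 for unanchored middle, 1.23 ± 0.185 for unanchored post, 1.55 ± 0.147 for anchored middle and 1.2 ± 0.126 for anchored post. For complex IV it was 2.05 ± 0.339, 3.71 ± 0.298, 2.79 ± 0.376, 3.2 ± 0.933 and 2.67 ± 0.251 in that order. Complexes III and V had ratios of 0.5 ± 0.0449 and 0.427 ± 0.019 for unanchored middle, against 0.391 ± 0.044 and 0.313 ± 0.0306 without a mold. In anchored post these were 0.383 ± 0.034 and 0.296 ± 0.0413, at the level of the no-mold group. Complex IV, alone of the 4, also had higher mean ratios in both post groups than without a mold by more than the SD of either group.

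**Figure D1:**
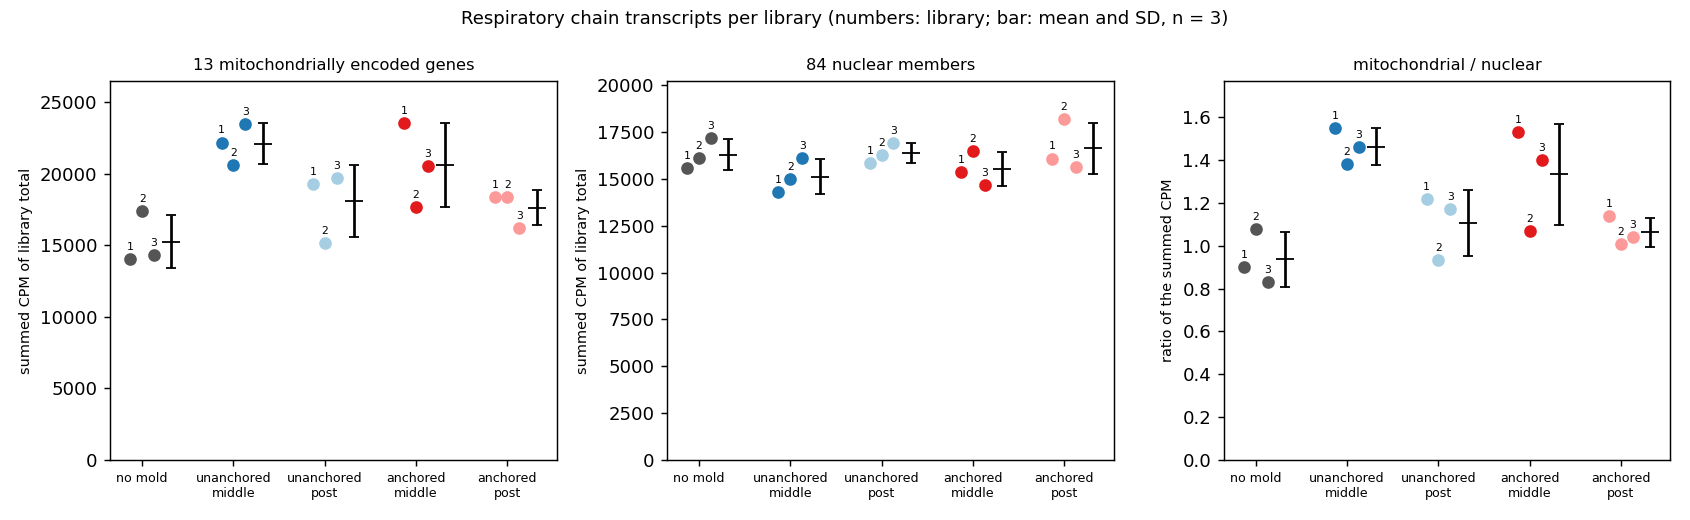
Summed CPM of the library total for the 13 mitochondrially encoded genes (left), the 84 nuclear members (middle) and their ratio (right), per library (numbered points) with the mean and SD of 3 libraries beside them, for the 5 groups; axes start at 0. The ratio averages 1.46 for unanchored middle and 1.33 for anchored middle against 0.937 without a mold, and the nuclear sums overlap in all groups.

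Among the mitochondrial genes, the largest difference between group means was that of COX1 (ENSBTAG00000043561), which encodes the catalytic core of complex IV. Its level, in CPM scaled between libraries by edgeR's TMM method as are all levels of single genes here, was 1928, 2598 and 1979.8 without a mold, 4032, 3911 and 4595 for unanchored middle and 3219, 2942 and 2941 for unanchored post. It was 4416, 3023 and 3638 for anchored middle and 2976, 2746 and 2929 for anchored post. Every molded library exceeded every no-mold library, and the middle libraries exceeded the post libraries of their own mold type, while anchored middle library 2 fell below unanchored post library 1. The mean of the 4 molded groups was higher than no mold (log2 fold change 0.65, SE 0.11, edgeR adjusted p = 0.00035), and post was lower than middle over both mold types (log2 fold change -0.41, SE 0.095, edgeR adjusted p = 0.00916). The second call held under all 21 alternative settings and the first under 20 of 21. Here and below, such tallies include the fit with no filter on low counts, which is doubtful for a reason given with the comparisons by anchoring. Between regions they also include the fits without a no-mold library. The no-mold libraries enter that comparison only through the shared spread, scaling and filter. Without the 3 shallowest libraries the molded difference was 0.423 on the log2 scale with an edgeR adjusted p of 0.109.

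The other mitochondrial subunits of complex IV, COX2 (listed as MT-CO2), which takes electrons from cytochrome c, and COX3, were higher than no mold in the middle groups. MT-CO2 averaged 1707 ± 153 without a mold, 2267 ± 285 for unanchored middle, 2165 ± 484 for unanchored post, 2173 ± 179.9 for anchored middle and 1946 ± 340.2 for anchored post (middle against no mold log2 fold change 0.38, SE 0.13, edgeR adjusted p = 0.0447). COX3 averaged 4406 ± 552 without a mold, 5845 ± 223 for unanchored middle, 4924 ± 578 for unanchored post, 5395 ± 917 for anchored middle and 5116 ± 113 for anchored post (log2 fold change 0.35, SE 0.12, edgeR adjusted p = 0.0374). Neither passed in the mean of all molded groups or between regions, and 71.29% of the counts of COX3 were in divided values. Both calls rested on single libraries. That of MT-CO2 was lost in 11 of 21 alternatives, among them the replicate block (edgeR adjusted p = 0.0506), DESeq2 size factors (0.0546), the fit without the 3 shallowest libraries (0.505) and leaving out no-mold library 1 or 3, library 1 or 3 of either middle group or library 1 of either post group. That of COX3 was lost in 7, without no-mold library 1 (0.202) or 3 (0.122), without library 1 or 3 of either middle group, and without the 3 shallowest libraries (0.354).

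Complex I has its 7 mitochondrial subunits in the membrane arm that pumps protons. ND1 (ENSBTAG00000043558), which sits at the ubiquinone site, had levels of 1181, 1327 and 1050.0 without a mold, 1761, 1725 and 2079 for unanchored middle and 2028, 1891 and 1570.1 for anchored middle. Its post libraries, with 1605, 1181 and 1892 in unanchored and 1525, 1676 and 1037 in anchored tissue, ran from within the no-mold range to within the middle range. ND1 was higher in the mean of the molded groups (log2 fold change 0.48, SE 0.13, edgeR adjusted p = 0.0171) and in the middle groups against no mold (log2 fold change 0.63, SE 0.15, edgeR adjusted p = 0.0038). Its call in the molded mean was lost when no-mold library 1 was left out (edgeR adjusted p = 0.0727), when library 3 was (0.142) and without the 3 shallowest libraries (0.508).

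MT-ND2 (ENSBTAG00000043571), another pump subunit, had 1177, 1182 and 1310.1 for unanchored middle and 1380.1, 1505 and 1133 for anchored middle, against 1036, 726 and 1007 for unanchored post and 960.1, 1124 and 703 for anchored post. The middle and post libraries did not overlap (2.30% of all genes were lower in post in that way), and the no-mold libraries, at 796, 1098 and 812, lay among the post libraries. Post was lower than middle (log2 fold change -0.47, SE 0.11, edgeR adjusted p = 0.012), a call that held under all 21 alternatives, and middle was higher than no mold (log2 fold change 0.50, SE 0.14, edgeR adjusted p = 0.0152). The second call was lost without no-mold library 1 (edgeR adjusted p = 0.099), without library 3 (0.11) and without the 3 shallowest libraries (0.678). The post groups were at 0.035 on the log2 scale against no mold (edgeR adjusted p = 0.913).

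Of the remaining complex I genes, MT-ND4 averaged 1462 ± 95.2 without a mold, 1619.7 ± 105 for unanchored middle, 1357 ± 226 for unanchored post, 1587 ± 92.2 for anchored middle and 1388 ± 183 for anchored post, and MT-ND3 955 ± 33.03 without a mold, 1024 ± 32.97 for unanchored middle, 918 ± 63.8 for unanchored post, 1039 ± 85.6 for anchored middle and 975 ± 102 for anchored post. ND5 averaged 216 ± 37.8 without a mold and 217.7 to 248.5 in the molded groups. None of these passed in any comparison with no mold or between regions. MT-ND4L, whose coding sequence overlaps that of MT-ND4 on a shared messenger RNA so that reads are hard to assign, was the only mitochondrial gene called lower in a comparison with no mold. It averaged 82.8 ± 8.68 without a mold, 80.3 ± 12.3 for unanchored middle, 66.99 ± 10.5 for unanchored post, 67.8 ± 4.36 for anchored middle and 62.7 ± 6.57 for anchored post, and the post groups were lower than no mold (log2 fold change -0.37, SE 0.11, edgeR adjusted p = 0.0365). This call was lost in 8 of 21 alternatives, without any 1 of the no-mold libraries (edgeR adjusted p = 0.0905, 0.249 and 0.0561 in order), unanchored post library 1 or 2 or anchored post library 2 or 3 (0.0561 to 0.0917), and without the 3 shallowest (0.108). MT-ND6, which lies on the opposite DNA strand from the others, was the one with the fewest counts and had 14.2, 19.2 and 16.4 without a mold, 20.8, 14.2 and 18.1 for unanchored middle, 24.6, 37.5 and 17.6 for unanchored post, 11.1, 27.3 and 32.7 for anchored middle and 25.4, 21.2 and 18.3 for anchored post, with overlap among all groups.

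MT-CYB, the cytochrome b of complex III, averaged 885 ± 49.8 without a mold, 916 ± 31.8 for unanchored middle, 756 ± 111 for unanchored post, 897 ± 75.2 for anchored middle and 793 ± 59.5 for anchored post, so that both post means lay below the no-mold mean, and it passed in no comparison. MT-ATP6, the proton channel subunit of ATP synthase, averaged 1811 ± 147 without a mold, 2317 ± 128 for unanchored middle, 1899 ± 433 for unanchored post, 2357 ± 215 for anchored middle and 1789.8 ± 408 for anchored post. Its difference of post from middle was -0.34 (SE 0.11, edgeR adjusted p = 0.0502), just short of the threshold of 0.05, and 5 of 21 alternatives placed it past, among them the fit with no filter on low counts, which is doubtful for a reason given with the comparisons by anchoring. MT-ATP8, which overlaps MT-ATP6 on 1 messenger RNA, averaged 33.8 ± 10.3 without a mold, 45.5 ± 7.64 for unanchored middle, 42.7 ± 9.95 for unanchored post, 45.5 ± 9.98 for anchored middle and 35.1 ± 8.87 for anchored post and passed in none.

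**Figure D2:**
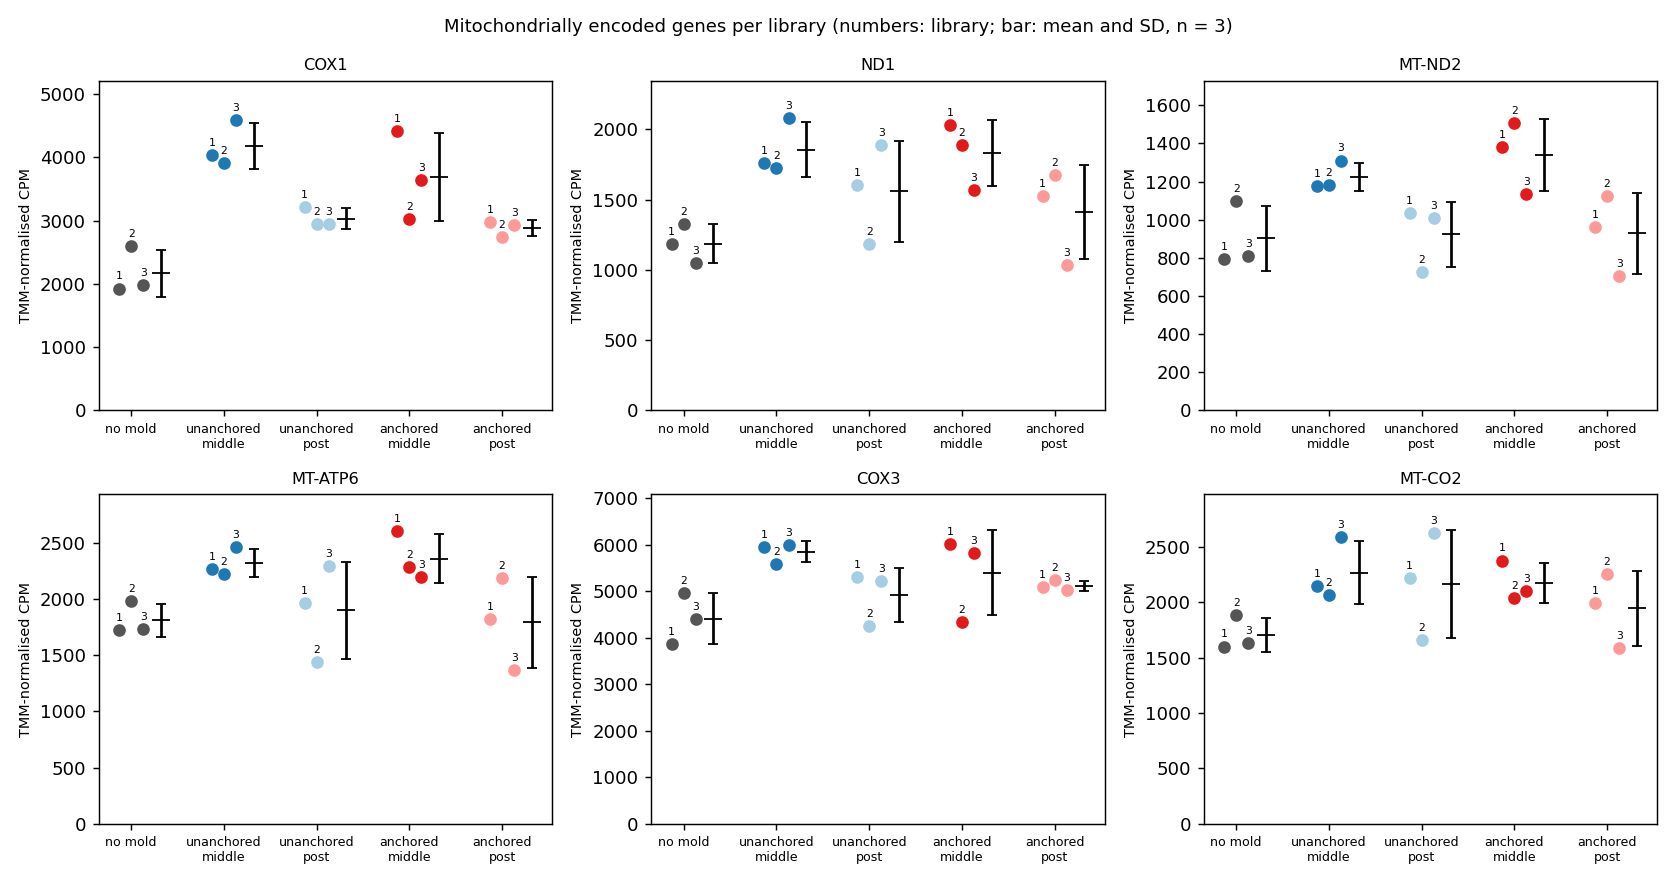
TMM-normalised CPM of 6 mitochondrially encoded genes per library (numbered points) with the mean and SD of 3 libraries beside them, for the 5 groups; axes start at 0. COX1 is higher in every molded library than in every no-mold library, and the middle libraries of MT-ND2 all lie above its post libraries.

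Between regions, the members that passed were lower in post if mitochondrial and higher in post if nuclear. In the comparison of post with middle over both mold types, 2 of 13 mitochondrial genes were lower and 0 higher, while 7 of 80 nuclear members were higher and 0 lower. Of all tested genes, 5.19% were lower and 3.32% higher in this comparison. The log2 fold change was negative for 12 of 13 mitochondrial genes, all but MT-ND6 (0.23, edgeR adjusted p = 0.503), with a median of -0.23, and positive for 64 of 80 nuclear members, with a median of 0.11. All tested genes had a median of -0.01, with 51.3% negative. At an unadjusted p under 0.05, 7 mitochondrial genes were lower and 25 nuclear members higher, against 12.6% and 10.7% of all genes, and no mitochondrial gene was higher and no nuclear member lower.

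The nuclear members that rose in the post region came from 4 complexes. ATP5PB (ENSBTAG00000006441), the b subunit in the stalk that holds the stationary part of ATP synthase, had 272, 274 and 310.4 for unanchored middle and 279, 239.6 and 285 for anchored middle. In unanchored post it had 339.7, 349 and 382 and for anchored post 312, 372 and 328. All 6 post libraries lay above all 6 middle libraries (log2 fold change 0.33, SE 0.074, edgeR adjusted p = 0.00816), and the no-mold libraries, at 276, 330.5 and 349, spanned both.

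SDHC (ENSBTAG00000015853), the cytochrome b anchor of complex II, had 100.3, 107 and 108 for unanchored middle, 103, 119 and 109 for anchored middle, 120.0, 123 and 123 for unanchored post and 123, 155 and 137 for anchored post. Post and middle did not overlap (log2 fold change 0.27, SE 0.069, edgeR adjusted p = 0.0153). The no-mold libraries, at 149, 157 and 174, lay above every molded library except anchored post library 2.

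NDUFB6 (ENSBTAG00000005907), an accessory subunit of the membrane arm of complex I, had 129, 121 and 148 and 128, 155 and 132 in the unanchored and anchored middle and 164, 170.1 and 180.4 and 155, 191 and 157 in the posts (log2 fold change 0.33, SE 0.084, edgeR adjusted p = 0.0169). Anchored middle library 2, at 155, was the one middle library above the lowest post library. The call was lost without unanchored middle library 2 (edgeR adjusted p = 0.067). The calls of ATP5PB and SDHC held under all 21 alternatives, a tally with the limits given for that of COX1.

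The other nuclear members higher in post were closer to the threshold. NDUFA5, an accessory subunit of complex I, differed by 0.25 in log2 units (edgeR adjusted p = 0.0469) and NDUFB8, of its membrane arm, by 0.24 (0.0421). COX5A, which holds to the matrix side of complex IV, differed by 0.21 (0.0454), and ATP5MC3, a gene for the rotor ring of ATP synthase, by 0.22 (0.0499). These calls were lost in 14, 8, 11 and 16 of 21 alternatives in that order. Post and middle libraries did not overlap for 5 nuclear members, against 1.88% of all genes higher in that way. Of these, 4 are named above and the fifth, UQCRFS1, the iron-sulfur protein of complex III, was chosen after its values were seen. UQCRFS1 had 118, 119.6 and 114 and 121, 94.8 and 121 in the middle and 128, 133 and 123 and 126, 139.6 and 136 in the posts, unanchored first, and did not pass.

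The count of 9 members rested on single libraries. It fell to 5 without unanchored post library 1, unanchored middle library 1 or anchored middle library 3, and to 4 without unanchored middle library 2. The nuclear part was 3, 3, 3 and 2 in these fits, and also 3 without unanchored post library 3 or anchored post library 2. The mitochondrial part was 2 or 3 in every fit that left out a library.

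Tested within 1 mold type, with 3 libraries against 3, no member passed. For anchored post against anchored middle, 1.92% of all genes passed and 0 of 93 members did. At an unadjusted p under 0.05, 5 mitochondrial genes were lower and 9 nuclear members higher, against 8.18% and 5.80% of all genes, and DESeq2 called 2 members. For unanchored post against unanchored middle 0.448% of all genes passed. Again 0 members did, with 5 mitochondrial genes lower, 1 higher and 14 nuclear members higher at an unadjusted p under 0.05, against 7.80% lower and 6.13% higher of all genes, and DESeq2 called 1. All 13 mitochondrial genes had a negative fold change in the anchored comparison. In the unanchored one COX1 differed by -0.46 (edgeR adjusted p = 0.118) and ATP5PB by 0.32 (0.166), close to their anchored values of -0.36 (0.209) and 0.33 (0.117).

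**Figure D3:**
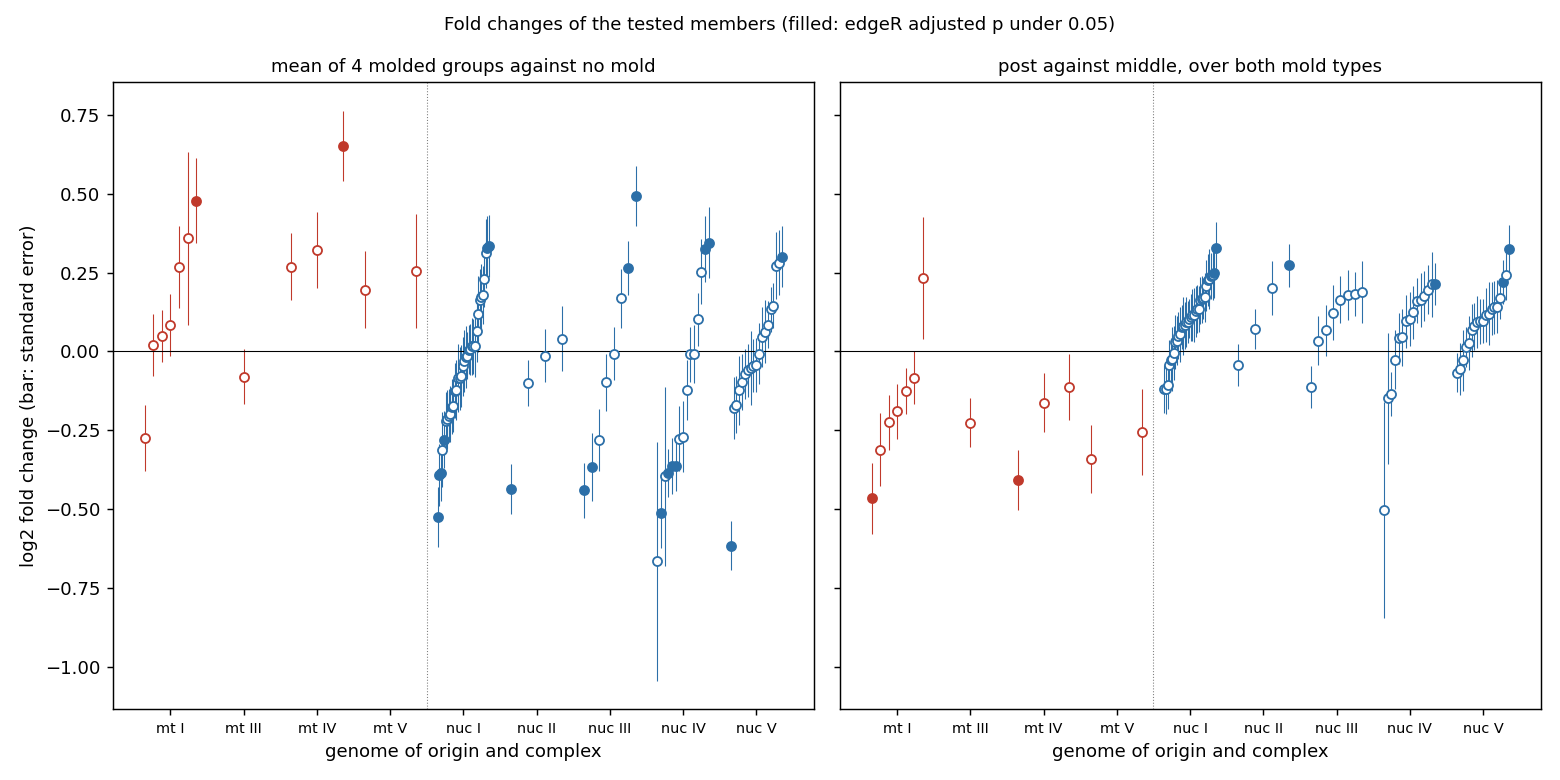
Log2 fold changes of the 93 tested members (points, with the standard error of the model as bars) for molded tissue, as the mean of its 4 groups, against no mold (left) and for post against middle over both mold types (right), by genome and complex; filled points have an edgeR adjusted p under 0.05. In the right panel 12 of 13 mitochondrial genes (red) lie below 0 and 64 of 80 nuclear members (blue) above it.

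Against no mold, the nuclear members split within complexes. In the mean of the 4 molded groups 7 of 80 nuclear members were higher and 12 lower, and 2 of 13 mitochondrial genes, COX1 and ND1, were higher and 0 lower. Of all tested genes 8.04% were higher and 7.91% lower. The count of 7 of 80 nuclear members higher is thus close to the background, that of 12 of 80 lower is above it, and that of the mitochondrial genes rests on 2 genes. The median log2 fold change was -0.05 over the nuclear members, 0.26 over the mitochondrial genes and 0.00 over all tested genes. The values of all molded and no-mold libraries did not overlap for 8 lower and 4 higher nuclear members and 1 higher mitochondrial gene, against 4.29% lower and 5.64% higher of all genes.

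Among the members that passed, the largest fall was in ATP5F1D (ENSBTAG00000000550), the delta subunit of the rotating stalk of ATP synthase. It had 265, 216 and 252 without a mold and 144, 149 and 159 for unanchored middle, 162, 165 and 152 for unanchored post, 141, 177 and 152 for anchored middle and 171, 167 and 168 for anchored post. Every no-mold library was above every molded library (log2 fold change -0.62, SE 0.077, edgeR adjusted p = 1.05e-05), and none of its counts were in divided values. Its fall and that of SDHC (log2 fold change -0.44, SE 0.078, edgeR adjusted p = 0.000559) were the 2 calls that held under every alternative tried.

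In complex I, NDUFB11, an accessory subunit of the membrane arm, had 216, 191 and 252 without a mold and 129 to 189.7 over the molded libraries (log2 fold change -0.53, SE 0.095, edgeR adjusted p = 0.000575). The iron-sulfur subunit NDUFS8 fell too, from 136, 126 and 134 without a mold to 84.5 to 120.2 in the molded libraries (-0.39, edgeR adjusted p = 0.0037). The accessory subunits NDUFA11 (-0.39, 0.00769) and NDUFB10 (-0.28, 0.0335) fell as well. Against these, the accessory subunits NDUFA5 (0.33, 0.0229) and NDUFB3 (0.33, 0.0247) rose. NDUFA5 was at 59.7, 58.7 and 60.5 without a mold, below all 12 molded libraries, whose lowest value was 61.2. NDUFS5, the complex I gene with the most counts, averaged 299 ± 29.03 without a mold, 264 ± 32.1 for unanchored middle, 286 ± 11.8 for unanchored post, 289.8 ± 52.4 for anchored middle and 287 ± 40.1 for anchored post and did not pass.

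In complex II only SDHC passed. Its levels of 160.0 ± 12.4 without a mold and 105 ± 4.43 and 110.2 ± 8.06 in the unanchored and anchored middles, with 122 ± 1.77 and 138 ± 16.2 in the posts, put the middle groups lowest. SDHA, the flavoprotein that oxidises succinate, averaged 64.2 ± 5.45 without a mold, 65.5 ± 0.663 for unanchored middle, 62.1 ± 6.197 for unanchored post, 64.2 ± 3.66 for anchored middle and 64.2 ± 1.999 for anchored post. SDHB, the iron-sulfur subunit, had -0.10 (edgeR adjusted p = 0.39), and SDHD, the other anchor, averaged 102 ± 14.3 without a mold and 96.6 to 113 in the molded groups.

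In complex III, UQCRB (ENSBTAG00000071684), which lies beside the ubiquinone site, was the nuclear member with the largest rise. It had 140.2, 159.5 and 139 without a mold and 180.1, 186 and 218 and 198, 210.5 and 177 in the unanchored and anchored middles. The posts had 228, 208 and 256 when unanchored and 196, 244 and 191 when anchored. All 12 molded libraries exceeded the no-mold libraries (log2 fold change 0.49, SE 0.096, edgeR adjusted p = 0.00112), and 51.54% of its counts were in divided values. The core protein UQCRC1 also rose (0.26, edgeR adjusted p = 0.0373), in a call lost under 8 of 21 alternatives. UQCR10, a small accessory subunit, fell from 382, 399 and 425 to between 245 and 362 (log2 fold change -0.44, SE 0.089, edgeR adjusted p = 0.00148), and the hinge protein UQCRH, which helps dock cytochrome c, fell by 0.37 in log2 units (0.022).

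In complex IV, COX7A1 (ENSBTAG00000014878), known as the isoform of heart and skeletal muscle, had 78.5, 78.6 and 84.8 without a mold and 43.8 to 70.4 in the molded libraries (log2 fold change -0.51, SE 0.11, edgeR adjusted p = 0.00256). COX5A (-0.39, edgeR adjusted p = 0.0011) and COX4I1 (-0.36, 0.00653), which sit next to each other in the complex, and COX7A2L (-0.36, 0.00348), which joins complexes III and IV into supercomplexes, fell too. The 2 rows of COX7B rose (0.35 and 0.32, edgeR adjusted p = 0.0374 and 0.0359), but 100% and 98.23% of their counts were in divided values. Whether the 2 rows share reads with each other was not tested, so they cannot be counted as independent. In complex V, ATP5PF, a coupling factor of the stationary stalk, rose (log2 fold change 0.30, SE 0.098, edgeR adjusted p = 0.0371). The inhibitor ATP5IF1, which stops ATP synthase from running backwards, was at 0.063 (0.736).

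The rises and falls differed in how much of their counts lay in divided values. The 7 nuclear members that rose had a median of 51.5% of counts in such values and the 12 that fell 13.6%, with 37.2% for the 61 that did not pass. The part of divided reads in these calls was not tested. The 5 falls in genes with no divided counts (ATP5F1D, COX7A1, UQCR10, NDUFA11 and COX7A2L) passed again in a fit to undivided rows alone (edgeR adjusted p at most 0.0108). The counts of these 5 genes were the same in both fits, so the second cannot show what divided reads did.

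How many members passed depended on which no-mold libraries were kept. Of the 21 members past the threshold, 11 were left when no-mold library 1 was left out and 9 when library 3 was. Without the 3 shallowest libraries, which leaves a single no-mold library whose spread is taken from the other groups, 2 were left, both lower nuclear members, in a fit that called 335 genes and changes depth and the number of libraries together. The nuclear rises fell from 7 to 1, 2 and 1 without no-mold libraries 1, 2 and 3. Without anchored middle library 2 the count was 30, with 4 mitochondrial genes higher and 19 nuclear members lower.

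**Figure D4:**
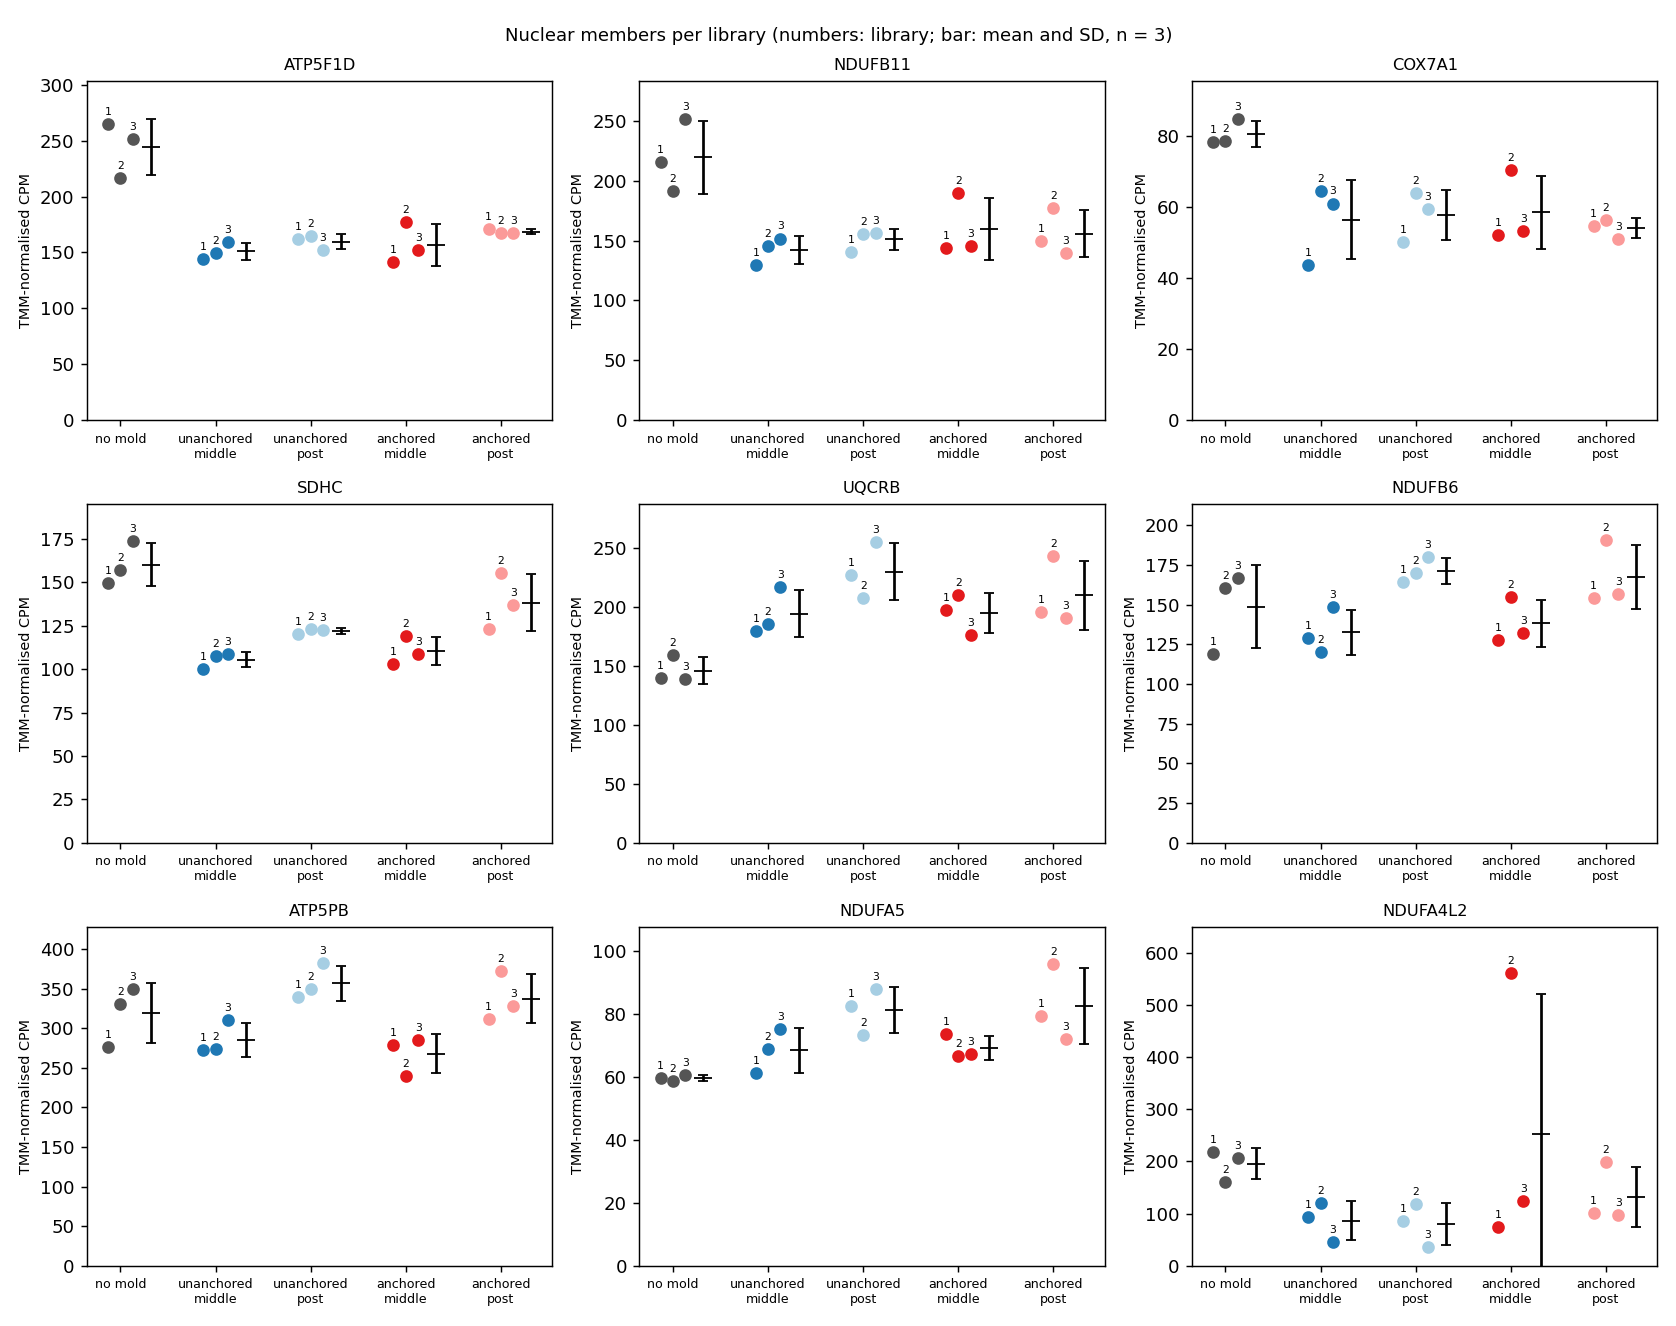
TMM-normalised CPM of 9 nuclear members per library (numbered points) with the mean and SD of 3 libraries beside them, for the 5 groups; axes start at 0, so the lower end of the SD bar of NDUFA4L2 for anchored middle, which runs below 0, is not drawn. ATP5F1D is higher in every no-mold library than in every molded one, and for ATP5PB all post libraries lie above all middle libraries.

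The middle and post regions were also set against no mold separately. These comparisons share the no-mold libraries, so their values are given side by side. In middle against no mold 9.65% of all genes were higher and 9.33% lower. There 5 of 13 mitochondrial genes were higher (COX1, ND1, MT-ND2, MT-CO2 and COX3) and 0 lower, and 2 of 80 nuclear members were higher and 17 lower. In post against no mold 5.86% of all genes were higher and 5.64% lower. There COX1 was higher and MT-ND4L lower, and 8 nuclear members were higher and 10 lower. The median over the mitochondrial genes was 0.35 in the middle and 0.04 in the posts, and over the nuclear members -0.11 and -0.01, with 0.01 and -0.01 for all genes.

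COX1 was 0.86 above no mold on the log2 scale in the middle and 0.45 in the posts (edgeR adjusted p = 3.55e-05 and 0.0166). SDHC was at -0.57 and -0.30 (6.71e-05 and 0.0256), and COX5A at -0.49 and -0.28 (0.000214 and 0.0298). The middle calls of COX1, SDHC and COX5A held under all 21 alternatives, but their post calls were lost in 3, 6 and 7 of 21. That of COX1 was lost without no-mold library 1 (edgeR adjusted p = 0.121) or 3 (0.12) and without the 3 shallowest libraries. ATP5F1D was at -0.66 and -0.57 (1.12e-05 and 0.000142), and NDUFB11 at -0.54 and -0.51 (0.00086 and 0.00255). UQCRB was at 0.40 and 0.58 (0.00792 and 0.000733). The nuclear members called higher in the posts and not called in the middle were NDUFA5, NDUFB3, both rows of COX7B, ATP5PF, the complex I accessory subunit NDUFA12 (0.37, 0.043), with 100% of its counts in divided values, and 1 row of ATP5F1E, the epsilon subunit of ATP synthase (0.34, 0.0493). That row of ATP5F1E had 89.55% of its counts in divided values. Its call was lost in 12 of 21 alternatives and that of NDUFA12 in 10. UQCRC1 was called higher in the middle and not in the posts. Those called lower in the middle and not in the posts were the complex I subunits NDUFB2, NDUFB8, NDUFB9 and NDUFB10, UQCRH and UQCRQ of complex III and COX7C of complex IV. A call in one region and not in the other is no test of the difference between regions, which was made directly above.

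The counts against no mold depended on the same libraries as the pooled one. In the middle the 24 members became 15 and 11 without no-mold libraries 1 and 3 and 6 without the 3 shallowest libraries. The 5 mitochondrial rises became 2 without no-mold library 1 or 3 and 3 without unanchored middle library 1 or 3 or anchored middle library 1 or 3. In the posts the 20 members became 7 and 6 without no-mold libraries 1 and 3, 12 without unanchored post library 1 and 0 without the 3 shallowest libraries, where 182 genes passed in all.

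Anchoring gave no call in the family. For anchored against unanchored middle and for anchored against unanchored post 0% of all tested genes passed, and 0 of 93 members did, by edgeR and by DESeq2. At an unadjusted p under 0.05, 3 nuclear members (NDUFA4L2, NDUFB7 and NDUFV1) were higher for anchored middle and 1 (NDUFA9) for anchored post, against 1.69% and 2.04% of all genes higher. The complex I subunits among these were named after their values were seen. The log2 fold change was positive for 65 of 80 nuclear members for anchored middle and for 55 of 80 for anchored post. Negative were 18.8% and 31.2% of them, against 49.2% of all tested genes in both comparisons. Their medians were 0.062 and 0.038, and 5 of 13 mitochondrial genes were positive in each. A shared sign among most nuclear members was thus not particular to the comparison of regions. The test of whether the difference between regions depends on anchoring also called 0% of genes and 0 members, and 0 members at an unadjusted p under 0.05, against 1.88% of all genes. With all genes of at least 1 count kept, each of these 3 comparisons called 1 member, but that fit cannot be taken as a test against the spread of libraries. Its prior degrees of freedom, which set how far the spread of a gene is drawn to that of all genes, were infinite, against 13.6 with the filter, so it used no spread of a gene's own. For COX1 the difference of differences was 0.11 in log2 units (SE 0.19, edgeR adjusted p = 1), and for MT-ND2 -0.12 (SE 0.23, adjusted p = 1).

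The gene with the largest difference by anchoring was NDUFA4L2 (ENSBTAG00000031503), a paralog of the complex IV subunit NDUFA4 that is known to be induced by low oxygen. It had 218, 161 and 207 without a mold, 92.97, 121 and 46.04 for unanchored middle, 85.98, 118 and 36.8 for unanchored post, 74.3, 562 and 124 for anchored middle and 101, 198 and 97.6 for anchored post. Anchored middle library 2, at 561.8, stood apart from the others of its group and from every other library. The difference of anchored from unanchored middle was 1.49 in log2 units (SE 0.49, unadjusted p = 0.0055, edgeR adjusted p = 1). In alternatives added after the data were seen, it was 0.183 without anchored middle library 2 and 0.186 without the 3 shallowest libraries (edgeR adjusted p = 1 in both), and 0.183 to 1.94 with any 1 library left out. The fit with no filter put it at 1.46 with an edgeR adjusted p of 2.34e-33, a value that ignores how far anchored middle library 2 stood from its group. The difference of post from middle over both mold types was -0.50 (0.397) and turned to 0.146 without anchored middle library 2. The molded mean was -0.67 against no mold (edgeR adjusted p = 0.249).

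Paired isoforms give a view within complex IV that does not depend on library size, as the share of 1 isoform in the sum of both. Such a share is compared between groups only. COX7A1 made up 30.3%, 28.5% and 26.7% of COX7A1 and COX7A2 together without a mold, and 18.2% to 26.6% in the molded libraries, so the no-mold libraries were the 3 highest. The means were 28.5% ± 1.78 without a mold, 23.1% ± 3 for unanchored middle, 21.7% ± 2 for unanchored post, 23.1% ± 2.31 for anchored middle and 19.7% ± 1.37 for anchored post. COX7A2, the form of most tissues, averaged 203 ± 26.8 without a mold, 187 ± 26.9 for unanchored middle, 208 ± 8.36 for unanchored post, 193 ± 8.02 for anchored middle and 222 ± 27.3 for anchored post, and 75.2% of its counts were in divided values. The share of NDUFA4L2 in NDUFA4 and NDUFA4L2 was 30.4% ± 4.41 without a mold, 17.5% ± 7.4 and 14.1% ± 6.97 for unanchored middle and post, and 31.4% ± 20.8 and 21.5% ± 4.83 for anchored middle and post. NDUFA4 itself averaged 447 ± 36.96 without a mold, 409 ± 42.4 for unanchored middle, 484 ± 30.7 for unanchored post, 422 ± 35.8 for anchored middle and 466 ± 62.4 for anchored post.

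The other minor isoforms were at or near 0. COX6A2, the muscle partner of COX6A1, had 0 counts in all 15 libraries. COX4I2, the lung isoform, had 14 counts over 9 libraries, COX7B2 had 25 over 13 and COX8B, a muscle isoform, had 32 over 14, so these 4 were not tested. COX6B2, known from testis, made up 0.677% to 0.926% of COX6B1 and COX6B2 as group means. Their major partners were at 388.9 to 546.9 over the libraries for COX6A1, 306 to 471 for COX6B1 and 150 to 217.7 for COX8A, and none passed in the molded mean or between regions (COX6A1 -0.12 and 0.096, COX6B1 -0.28 and 0.044, COX8A 0.10 and -0.14 on the log2 scale).

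Ordered by group means, the families differed in where they peaked. Both middle means were above both post means for 11 of 13 mitochondrial genes (84.6%) and 4 of 80 nuclear members (5%), against 27.5% of all tested genes. The reverse order was found for 0 mitochondrial genes and 48 nuclear members (60%), against 26% of all genes. The lowest of the 5 means was that of no mold for 8 mitochondrial genes and 17 nuclear members, and that of a middle group for 0 and 52. Of all tested genes 31.7% were lowest without a mold and 36.3% lowest in a middle group. The size of these differences was modest, with a median of 1.33 for the highest over the lowest group mean of the mitochondrial genes (1.13 to 1.93), 1.22 for the nuclear members (1.05 to 3.15) and 1.33 for all tested genes. Of the nuclear members 74 of 80 stayed under 1.5-fold, of the mitochondrial genes 10 of 13 and of all tested genes 8467 of 11834. Members are not independent of each other, since all are measured in the same libraries and most mitochondrial genes are transcribed together.

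**Figure D5:**
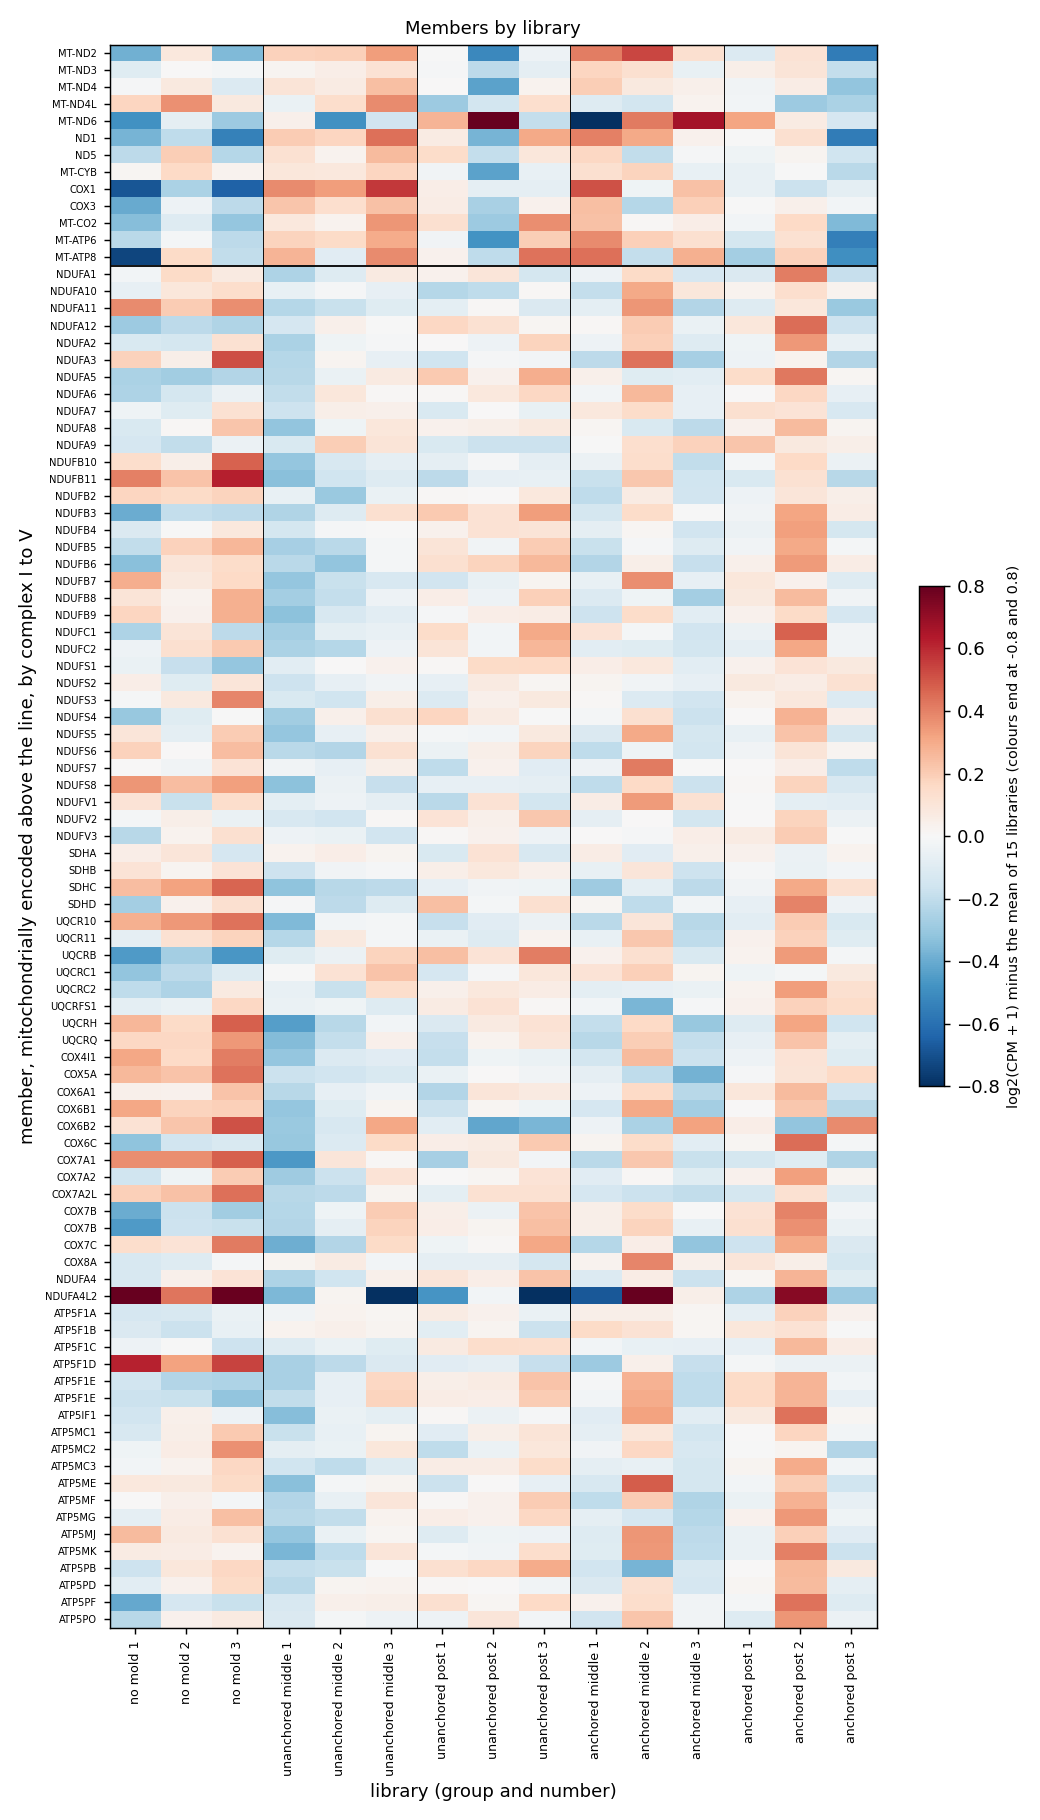
Level of each tested member (rows, mitochondrially encoded genes above the line, then nuclear ones, by complex I to V) in each of the 15 libraries (columns, by group), as log2(CPM + 1) minus its mean over the libraries; red is higher, blue lower, and the colours end at -0.8 and 0.8. The mitochondrial rows are mostly red in the middle libraries and blue in no-mold libraries 1 and 3, and many nuclear rows are red in anchored post library 2, which has the highest nuclear sum, 18196 CPM.

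The genes that build and feed the chain were set beside its subunits, against a background of 8.04% of all genes higher and 7.91% lower than no mold. In the mean of the molded groups 3 of 45 tested assembly factors were higher and 2 lower, with a median of 0.00. The complex I assembly factor NDUFAF2 averaged 5.38 ± 1.1 without a mold and 9.02 to 10.8 in the molded groups (log2 fold change 0.79, SE 0.19, edgeR adjusted p = 0.00665). The assembly factor SDHAF2 also rose (0.34, edgeR adjusted p = 0.00654), and UQCC3 fell (-0.41, 0.00849). Of the 77 tested rows for mitochondrial ribosomal proteins, which make the mitochondrially encoded subunits, 7 were higher and 13 lower (median -0.04), the higher share near the background and the lower one above it, led by MRPL38 (-0.72, edgeR adjusted p = 9.29e-05). Of 30 rows for import and carrier genes 2 were higher and 7 lower (median -0.08). Among them were both rows of the ADP/ATP carrier SLC25A6 (-0.64 and -0.70) and the import receptor TOMM20 (-0.33, edgeR adjusted p = 0.004).

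The genes that act on mitochondrial DNA and its RNA rose in 4 of 29 cases and fell in 0 in the molded mean (median 0.13), against 8.04% and 7.91% of all genes. TRMT10C, part of the enzyme that frees transfer RNAs from the mitochondrial precursor, rose by 0.59 in log2 units (edgeR adjusted p = 0.00143). The single-stranded DNA binding protein SSBP1 rose by 0.32 (0.0298) and the termination factor MTERF1 by 0.56 (0.0181). The mitochondrial RNA polymerase POLRMT, with 303 counts in all libraries together, was at 0.26 (0.586) and its cofactor TFAM, with 132 counts, at 0.1 (0.917). LRPPRC, which stabilises mitochondrial messenger RNA, was at 0.17 (0.267) and averaged 59.9 ± 7.27 without a mold and 66.2 to 71.8 in the molded groups.

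Of 15 nuclear regulators of respiratory genes 1 was higher and 1 lower. The nuclear receptor ESRRA fell (log2 fold change -0.47, SE 0.10, edgeR adjusted p = 0.00253), and the oxygen-sensing factor HIF1A rose (log2 fold change 0.28, SE 0.094, edgeR adjusted p = 0.0461). The coactivator PPARGC1A had 89 counts in all libraries together and GABPA 537 (-0.55 and 0.054, edgeR adjusted p = 0.558 and 0.902), and NRF1, with 63 counts, was not tested. Of 26 genes of the tricarboxylic acid cycle and pyruvate entry 1 was higher, fumarase FH (0.41, 0.00286), and 3 were lower, among them the pyruvate carrier MPC2 (-0.43, 0.00215) and PDK1, a kinase that blocks pyruvate entry (-0.49, 0.0322). Of 16 rows for cytochrome c, electron transfer flavoprotein and coenzyme Q genes 0 were higher and 1 was lower, cytochrome c1 CYC1 (-0.29, 0.0317). CYC1 is itself a subunit of complex III, but its symbol lies outside the rule, so the counts of members leave it out.

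Between regions, the nuclear genes around the chain that passed were all higher in post. These were 9 of 77 rows for mitochondrial ribosomal proteins (median 0.11), 4 of 30 rows for import and carrier genes (0.09) and 3 of 45 assembly factors (0.08). They were also 3 of 26 tricarboxylic acid cycle and pyruvate genes (0.04) and 3 of 16 rows of the cytochrome c group (0.11). In each list 0 was lower. Of all tested genes 3.32% were higher and 5.19% lower, with a median of -0.01. Of the genes acting on mitochondrial DNA and RNA 0 of 29 passed, and of the regulators 0 of 15. The pyruvate carrier subunits MPC1 and MPC2 led the cycle genes. MPC1 averaged 320.4 ± 36.3 without a mold, 234 ± 33.8 for unanchored middle, 326 ± 35.1 for unanchored post, 207.8 ± 40.8 for anchored middle and 290.0 ± 17.9 for anchored post (log2 fold change 0.48, SE 0.091, edgeR adjusted p = 0.00196), so that its post groups were near the no-mold level. MPC2 rose by 0.34 (0.00793). Cytochrome c, CYCS, the shuttle between complexes III and IV, has 2 rows under different identifiers, higher in post by 0.31 and 0.29 (edgeR adjusted p = 0.0155 and 0.0338). Whether these 2 rows share reads was not tested, so they cannot be counted as independent. The third passing row of that group was HIGD1A (0.35, edgeR adjusted p = 0.0195). LRPPRC (0.058), POLRMT (0.074) and TFAM (0.17) did not pass (adjusted p = 0.709, 0.862 and 0.759).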

How the data were processed

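Polyadenylated RNA of 15 libraries in 5 groups was read near the 3′ end, from libraries primed with oligo-dT carrying molecular identifiers and made by tagmentation, per the labels' protocols. The submitters' processing notes name STAR 2.7, SAMtools 1.21, featureCounts of Subread 2.1.1 and MultiQC 1.33. The genome build, the annotation and how identifiers were collapsed are not given in those sources. The authors deposited expected counts (estimated counts) per gene, of which 13.5% to 16.3% of nonzero values per library are not whole, and CPM values that equal each count over its library total times 1000000. The 92 rows of spike-in RNA, at most 0.00127% of a library, were left out.

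Counts were rounded to whole numbers, filtered with filterByExpr (minimum count 10, total 15), scaled by TMM (factors 0.934 to 1.049) and tested with edgeR 4.0.16 (quasi-likelihood, R 4.3.3) with 1 mean per group over all 15 libraries. The 9 comparisons were each adjusted by Benjamini-Hochberg over 11834 genes, with a threshold of 0.05. Levels of single genes are TMM-normalised CPM, and sums are CPM of the library total. DESeq2 1.42.0 was an alternative, beside other size factors, no filter (where edgeR estimated no spread of a gene's own), a replicate block, library sizes without mitochondrial genes, undivided rows alone, and leaving out each library or the 3 shallowest. On simulated data 42% of genes changed 1.3-fold and 100% of those changed 2-fold were recovered for molded against no mold, and 84% and 100% for post against middle. The simulation changed 100 genes at each fold, drawn from genes with more counts, and called 10 and 9 unchanged genes in the 2 comparisons. More genes were called in the data themselves, which makes the adjustment less strict there, so these rates need not carry over. No libraries of a group agreed within sampling noise (chi-square over its degrees of freedom, 2.75 to 13).

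The members and lists were chosen with earlier results of these data known. Named are all mitochondrial genes, complex II, isoform pairs, ATP5IF1, the nuclear gene with the most counts per complex, up to 8 passing nuclear members per direction and comparison with at least 10 CPM, and from each of 7 lists up to 3 genes with the smallest p, with chosen regulators.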

Additional observations from a re-analysis of the deposited data

How the results depend on the processing

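Over 103 results on single genes and 2183 alternatives, 1906 kept their direction and side of the threshold, 242 lost a call, 24 gained one and 11 turned. The fit with no filter on low counts had infinite prior degrees of freedom, so it took the spread of each gene from the trend over all 21304 genes and not from the gene's own libraries. Its calls, among them 8 of the 24 gained ones, are printed as computed and support nothing here. The other edgeR fits had 12.8 to 20.9. Members past the threshold numbered 21 for molded against no mold (9 to 30 with 1 library left out, 2 without the 3 shallowest), 24 for middle against no mold (11 to 31, and 6) and 20 for post against no mold (6 to 25, and 0). For post against middle there were 9 (4 to 12, and 9). For anchored post against middle the count of 0 became 2 by DESeq2, 5 with no filter on low counts, 1 without the 3 shallowest libraries and 0 to 2 with 1 library left out. For unanchored post against middle it became 1 by DESeq2, 3 with no filter, 1 without the 3 shallowest libraries and 0 to 1 with 1 library left out. The 2 comparisons by anchoring and their interaction each gave 1 member with no filter and 0 with any library left out. The cause of these moves was not tested, beyond the fewer libraries in each fit.

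Without the 3 shallowest libraries, the molded difference turned for MT-ND2 (-0.0359), MT-ND4 (-0.0655), ND5 (-0.152), MT-ATP8 (-0.0257) and ATP5IF1 (-0.056), none of them called, and NDUFA4L2 between regions turned to 0.147 (0.146 without anchored middle library 2). The molded value of MT-ND4 was -0.026 without no-mold library 3 and -0.00316 without anchored post library 2, within -0.026 to 0.0699 with 1 library left out. COX6B1 between regions was -0.0164 without anchored post library 2 and -0.0127 without anchored middle library 3, within -0.0164 to 0.135, and NDUFA4L2 lay between -0.733 and 0.146. A fit to undivided rows alone gave no value for mitochondrial genes, since 0 of 13 lack divided counts.

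The labels do not say that a replicate number marks a shared animal, batch or day. Libraries of the same number had correlations of deviations of -0.187 to 0.297 over 30 pairs (median 0.024), short of every pair being clearly positive. Pairs of different number had -0.248 to 0.213 over 60 pairs (median -0.012), so the 2 kinds overlapped widely. The post and middle pairs of the same number were at 0.0981, 0.122 and 0.297 in unanchored tissue and -0.0414, 0.091 and 0.163 in anchored tissue. Of 15 libraries 8 correlated best with their own number, at most a weak hint from the data and not from the design. With the replicate block, 25, 24, 22 and 7 members passed for molded, middle and post against no mold and for post against middle, and 0 in each of the other 5 comparisons.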
